A study of Homo sapiens with 12 samples.

Results

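BxPC-3 and CFPAC-1, established human lines of pancreatic ductal adenocarcinoma (PDAC), the common carcinoma of the pancreatic duct, were compared in ordinary culture. The comparison used 6 of the 12 RNA-seq libraries of the study, the 3 BxPC-3 and the 3 CFPAC-1 control libraries. The other libraries came from the same lines after 48 h of serum starvation, given to induce primary cilia, and were not part of this comparison. No agent, allele or transgene is named for either line, both groups grew without starvation, and total RNA was extracted with TRIzol. Whether the 3 libraries of a group are 3 cultures is not stated in the labels, and the p-values cover library-to-library spread alone, possibly technical. Of the 60564 genes in the deposited table, 11523 reached 1 FPKM (fragments per kilobase of transcript and 1e+06 mapped fragments) in at least 3 of the 6 libraries and were tested, and 10285 of these are protein coding. A gene expressed in 1 line alone enters the test through that line, so counts over tested genes lean toward genes that differ. A gene under 1 FPKM in every BxPC-3 library enters only where all 3 CFPAC-1 libraries reach 1 FPKM.

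The epithelium of the pancreatic duct is a simple epithelium, held together by E-cadherin and tight junctions and built on the keratin pairs of simple epithelia. Part of pancreatic cancers carry a basal-like or squamous programme, in which the transcription factor p63 and the keratins, S100 proteins and cornified envelope proteins of stratified epithelia are made. BxPC-3 is known to lack CDKN2A and SMAD4, the genes of a cell cycle inhibitor and of the shared effector of TGF-beta signalling. CFPAC-1 came from a patient with cystic fibrosis, the disease of the chloride channel gene CFTR.

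The libraries labelled CFPAC-1 lacked several of the epithelial markers that the label calls for and held others. All FPKM values below are given in the order of controls 1, 2 and 3. E-cadherin (CDH1) stood at 0.489, 0.192 and 0.180 FPKM in these libraries against 54.0, 42.1 and 44.9 in BxPC-3, and KRT7, a duct keratin, at 0.340, 2.01 and 1.92 against 586, 555 and 463. The splicing factor ESRP1 of epithelia stood at 0, 0.0126 and 0.0110 FPKM against 12.7, 9.03 and 9.69, and the epithelial transcription factor GRHL2 at 0, 0.0157 and 0 against 10.0, 5.54 and 5.94. KRT8 and KRT18, the keratin pair of simple epithelia, were present in all 6 libraries, at 254 to 318 FPKM in those labelled CFPAC-1 and 80.2 to 186 in BxPC-3. EPCAM stood at 14.8 FPKM in CFPAC-1 control 1 and near 1 in controls 2 and 3. ESRP2, the paralog of ESRP1, stood at 0.769, 2.84 and 2.45 against 8.27, 3.50 and 3.60 and did not pass the test (adjusted p = 0.134, limma). CFTR was listed at 0 in all 3 libraries labelled CFPAC-1 and at 0.00460, 0.0181 and 0 FPKM in BxPC-3. The libraries are therefore called here by their labels only. BxPC-3 matched its known losses, with CDKN2A, its neighbour CDKN2B and SMAD4 listed at 0 in all 3 libraries.

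CFPAC-1 control 1 also stood apart from controls 2 and 3. Across tested genes, the log2 difference between control 1 and control 2 or 3 had an SD of 1.05, against 0.247 between controls 2 and 3 and 1.11 to 1.21 between any library of one line and any of the other. Single genes split the 3 libraries completely. CDKN2A stood at 49.1, 0 and 0 FPKM in controls 1, 2 and 3, the lactate dehydrogenase subunit gene LDHB at 0, 176 and 186, and KRT19, a duct keratin, at 532, 7.42 and 7.67. In BxPC-3 LDHB stood at 139, 168 and 184 and KRT19 at 912, 739 and 651 FPKM, and the difference in KRT19 did not pass the test (adjusted p = 0.0973, limma, Benjamini-Hochberg). The BxPC-3 libraries showed a smaller split, with an SD of 0.544 to 0.576 between control 1 and the other two and 0.277 between controls 2 and 3. Summed FPKM ran from 276210 to 315380 per library, 10881 to 11169 genes reached 1 FPKM, and mitochondrially encoded genes took 19.9% to 34.0% of the sum. Without read counts the absolute depth is unknown, and low values carry no counting error here. For these reasons a gene is called higher or lower below only where the BxPC-3 mean lies on the same side of CFPAC-1 control 1 and of the mean of controls 2 and 3.

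BxPC-3 and the libraries labelled CFPAC-1 differed in 2484 of the 11523 tested genes, with 1281 higher and 1203 lower in BxPC-3 (adjusted p under 0.05, limma). These are 21.6% of tested genes in either direction, 11.1% higher and 10.4% lower. Among the 2484 genes 1201 differed by at least 1 on the log2(FPKM + 1) scale from both kinds of CFPAC-1 library, 787 of them higher and 414 lower. These numbers cover only differences from both kinds. Genes under 1 FPKM in BxPC-3 and high in only 1 kind were not tested and could not add to the lower genes. A mean difference of at least 2 on this scale, 4-fold in FPKM + 1, was reached by 406 higher and 126 lower genes. In all 2484 genes the 2 sets of values were fully separate, as they were in 4949 of all tested genes (42.9%). The median difference of all tested genes was -0.06. Fully separate values also mean that all 2484 genes agreed in sign against control 1 and against controls 2 and 3. Of all tested genes 7665 (66.5%) agreed and 3858 did not. The number of passing genes depended on single libraries: it was 5268 without CFPAC-1 control 1, 1228 without control 2 and 1230 without control 3, and 1030 without BxPC-3 control 2 and 1116 without control 3. A set of 982 of the genes, 648 higher and 334 lower, passed in each of the 6 fits that left out 1 library.

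**Figure D1:**
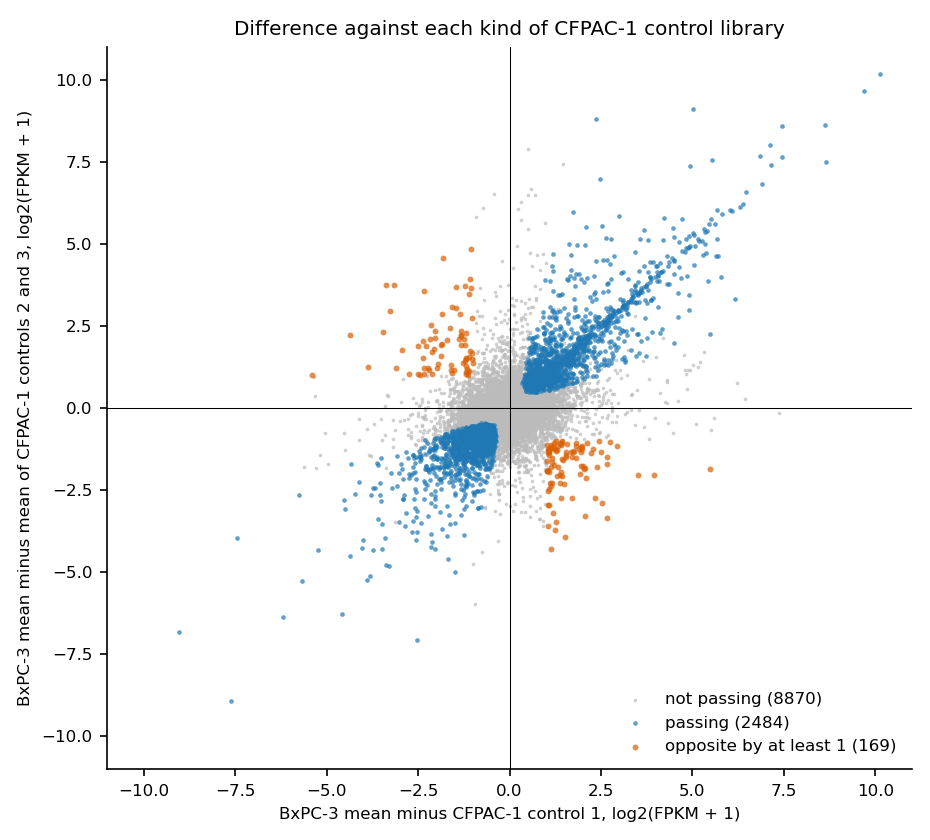
Each point is 1 of the 11523 tested genes, placed by the BxPC-3 mean minus CFPAC-1 control 1 (horizontal) and minus the mean of CFPAC-1 controls 2 and 3 (vertical), both in log2(FPKM + 1). The 2484 passing genes lie in the upper right and lower left, and 169 genes lie at least 1 from 0 on both axes with opposite signs.

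The genes furthest above CFPAC-1 in BxPC-3 were keratins of stratified epithelia, epithelial surface proteins, secreted regulators of proteolysis and clotting, and S100 proteins. By size of difference, among genes with a mean of at least 5 FPKM in the higher line, 13 of the 14 leading genes, those described here, were KRT17, SERPINB2, KRT6A, KRT7, F3, S100A14, AQP3, S100A2, KRT13, FXYD3, FST, KRT5 and S100A9. They reached means of 132 to 1211 FPKM in BxPC-3. Each of the 13, and of the 14 leading genes lower in BxPC-3, also passed without CFPAC-1 control 1 (adjusted p 9.42e-06 to 0.00305, limma) and with control 1 as the only CFPAC-1 library (0.00170 to 0.0303), a fit in which that library is assumed to vary like BxPC-3. Where values are set side by side with "against", those of BxPC-3 come first and those labelled CFPAC-1 second, and parentheses give the difference, BxPC-3 minus CFPAC-1, with its SE in log2(FPKM + 1). In a bulk library, fewer cells that make a transcript and less transcript per cell cannot be told apart.

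**Figure D2:**
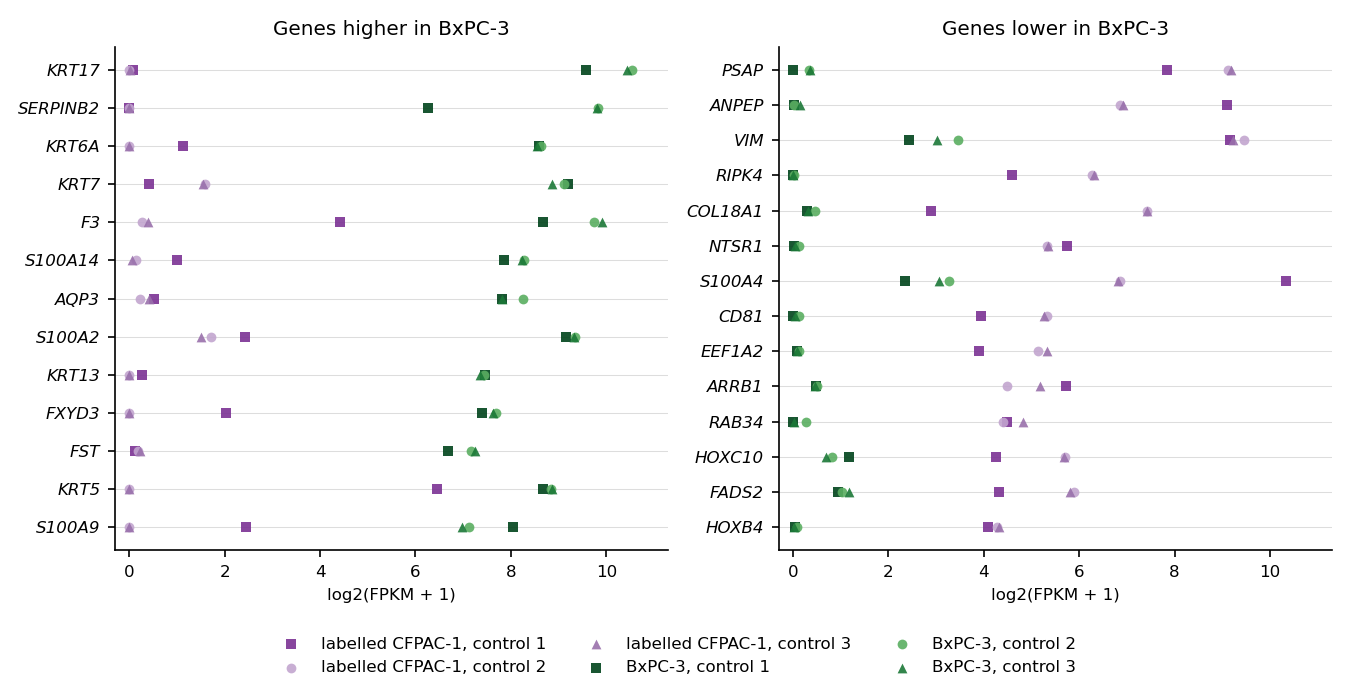
Level of 13 leading genes higher and the 14 leading genes lower in BxPC-3 in the 6 control libraries, as log2(FPKM + 1) on the horizontal axis, 1 point per library. Green BxPC-3 points and purple CFPAC-1 points do not overlap for any gene; KRT5, F3 and COL18A1 show CFPAC-1 control 1 (purple squares) far from controls 2 and 3.

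The largest difference was that of KRT17 (ENSG00000128422, chr17:41619441-41624842, GRCh38), the keratin of basal and wound-edge epithelium. Its level was 766, 1483 and 1384 FPKM in BxPC-3 and 0.0515, 0 and 0.0180 in the libraries labelled CFPAC-1, with means of 1211 ± 389 and 0.0232 ± 0.0261 (SD, n = 3). KRT17 had the highest BxPC-3 mean of the 13 genes and was near 0 in the libraries labelled CFPAC-1, a difference of 10.15 ± 0.28 (SE) in log2(FPKM + 1) (adjusted p = 1.87e-05, limma). KRT6A, the stress-induced partner of KRT17, stood at 382, 393 and 373 against 1.20, 0 and 0 FPKM (8.20 ± 0.33, adjusted p = 5.09e-05). KRT13, of internal stratified epithelia, stood at 175, 171 and 162 against 0.208, 0 and 0 (7.32 ± 0.15, adjusted p = 1.10e-05). The KRT6 genes are near-identical copies and KRT17 has pseudogenes, so how reads were shared among them is uncertain. KRT7 differed by 7.87 ± 0.34 (adjusted p = 6.49e-05), with no CFPAC-1 library above 2.01 FPKM. KRT5, the keratin of the basal layer, stood at 409.8, 458 and 461 FPKM in BxPC-3 and 86.0, 0 and 0 in the others, so that control 1 lay below each BxPC-3 library and controls 2 and 3 were listed at 0. The KRT5 difference, 6.64 ± 1.72 (adjusted p = 0.0401), was 2.35 against control 1 and 8.79 against controls 2 and 3. It missed the threshold without CFPAC-1 control 2 (0.114) or 3 (0.115), without BxPC-3 control 1 (0.101), 2 (0.128) or 3 (0.126), and with libraries paired by number (0.0618).

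Among surface proteins, AQP3, a channel for water and glycerol, stood at 224, 305 and 224 against 0.439, 0.162 and 0.338 FPKM (7.57 ± 0.19, adjusted p = 1.87e-05, limma). FXYD3, a regulator of the sodium pump, stood at 167, 205 and 197 against 3.08, 0 and 0 (6.89 ± 0.56, adjusted p = 6.64e-04). For neither gene did the values of the lines come near each other.

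S100A2, S100A14 and S100A9, small calcium-binding proteins encoded in the epidermal differentiation region of chromosome 1, were all higher in BxPC-3, among 5 higher and 1 lower of 11 tested S100 genes (median difference 0.90). S100A2, a target of p63, stood at 567, 647 and 636 FPKM against 4.36, 2.27 and 1.83 (7.39 ± 0.26, adjusted p = 3.37e-05, limma). S100A14 stood at 232, 309 and 301 against 1.01, 0.112 and 0.0425 (7.72 ± 0.29, adjusted p = 4.04e-05). S100A9, a subunit of calprotectin, stood at 263, 138 and 125 against 4.47, 0 and 0 (6.56 ± 0.72, adjusted p = 0.00196), so that control 1 was the highest BxPC-3 library for S100A9 and the lowest for S100A2 and S100A14.

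F3, SERPINB2 and FST encode secreted or surface regulators. F3 (chr1:94529225-94541800), tissue factor and the starter of clotting, stood at 406, 859 and 954 FPKM in BxPC-3, 739.7 ± 293, and at 20.4, 0.204 and 0.307 in the libraries labelled CFPAC-1, 6.96 ± 11.6 (mean and SD, n = 3). CFPAC-1 control 1 lay between the groups, and the difference was 5.02 against it and 9.11 against controls 2 and 3 (7.75 ± 1.14 over all 3, adjusted p = 0.00602, limma). SERPINB2 (chr18:63871692-63903890), the plasminogen activator inhibitor PAI-2, was listed at 0 in all 3 libraries labelled CFPAC-1 and stood at 76.2, 905 and 892 FPKM in BxPC-3. BxPC-3 control 1 lay far below controls 2 and 3, and no fold is given against a level listed at 0 (adjusted p = 0.00205). FST (chr5:53480409-53487134), follistatin, which binds activins, stood at 102, 142 and 152 FPKM against 0.0905, 0.137 and 0.164 (6.86 ± 0.19, adjusted p = 1.87e-05), with no library of either line apart from its group.

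Promoter sequence was read for the leading genes from RefSeq (GRCh38.p14) as the 250 bases before the RefSeq start. RefSeq starts can differ from the ends of the gene spans in the files' annotation, and the windows of SERPINB2 and S100A2 lie inside those spans and those of FST and F3 partly inside. The table held 9 of the 14 higher and 7 of the 14 lower genes. Windows were searched on both strands for TGANTCA, the site of AP-1 factors (FOS and JUN dimers), and for CAGGTG, an E-box bound by SNAI and ZEB repressors of epithelial genes. TGANTCA was found in 4 of the 9 higher genes (44.4%) and in none of the 7 lower genes, against 6.60% of all 27305 promoters of the same length in the table. CAGGTG was found in 4 of 9 higher genes (44.4%), in 1 of 7 lower genes (14.3%) and in 17.5% of all promoters. A match is a string of letters and not a shown binding site, and the genes were chosen by their levels. The 4 windows with TGANTCA are printed 5′ to 3′ on the strand of the gene, each ending at the base before the start, with motif matches in capitals. They are F3 at chr1:94541760-94542009 (minus strand), SERPINB2 at chr18:63887455-63887704 (plus), S100A2 at chr1:153565845-153566094 (minus) and FST at chr5:53480379-53480628 (plus).
F3: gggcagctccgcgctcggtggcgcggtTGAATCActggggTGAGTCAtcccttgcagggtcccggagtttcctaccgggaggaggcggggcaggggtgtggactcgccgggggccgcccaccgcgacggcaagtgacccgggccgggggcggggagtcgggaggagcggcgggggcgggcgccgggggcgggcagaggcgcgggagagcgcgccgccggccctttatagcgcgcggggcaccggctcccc
SERPINB2: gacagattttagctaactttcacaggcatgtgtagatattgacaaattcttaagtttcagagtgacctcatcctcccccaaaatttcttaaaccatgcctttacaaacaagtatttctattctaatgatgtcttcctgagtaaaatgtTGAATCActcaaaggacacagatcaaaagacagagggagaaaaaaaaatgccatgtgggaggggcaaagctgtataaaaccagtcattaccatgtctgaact
S100A2: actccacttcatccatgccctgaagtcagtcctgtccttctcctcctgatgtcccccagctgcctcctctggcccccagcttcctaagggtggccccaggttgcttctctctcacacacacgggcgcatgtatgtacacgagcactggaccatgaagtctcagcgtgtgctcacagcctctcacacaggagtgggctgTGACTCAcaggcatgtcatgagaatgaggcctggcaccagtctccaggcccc
FST: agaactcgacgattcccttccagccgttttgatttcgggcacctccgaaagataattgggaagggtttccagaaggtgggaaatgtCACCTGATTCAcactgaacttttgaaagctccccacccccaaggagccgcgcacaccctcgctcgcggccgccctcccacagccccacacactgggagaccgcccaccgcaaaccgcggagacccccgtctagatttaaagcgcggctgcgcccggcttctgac
The first match base lay 223 and 210 bases before the start in F3, 102 in SERPINB2, 52 in S100A2 and 160 in FST. In FST the AP-1 match overlaps an E-box match that begins 164 bases before the start, read from the other strand.

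The genes furthest below CFPAC-1 in BxPC-3 encode a lysosomal protein, an ectopeptidase, the mesenchymal filament vimentin, receptors and their regulators, matrix and HOX proteins. The 14 leading genes were PSAP, ANPEP, VIM, RIPK4, COL18A1, NTSR1, S100A4, CD81, EEF1A2, ARRB1, RAB34, HOXC10, FADS2 and HOXB4. In BxPC-3 none of them exceeded 10.1 FPKM in any library, and all but VIM and S100A4 stayed at or below 1.28.

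PSAP (chr10:71816298-71851375) encodes prosaposin, the precursor of the saposins that lysosomes need to break down sphingolipids. It stood at 229, 552 and 579 FPKM in the libraries labelled CFPAC-1, 453 ± 195, and at 0, 0.267 and 0.287 in BxPC-3, 0.184 ± 0.160 (mean and SD, n = 3). A gene that most cells express abundantly was thus near 0 in each BxPC-3 library (-8.48 ± 0.38, adjusted p = 7.07e-05, limma). ANPEP, the aminopeptidase CD13, stood at 0.0109, 0.0157 and 0.116 FPKM against 544, 114 and 119 (-7.55 ± 0.60, adjusted p = 6.27e-04), with CFPAC-1 control 1 highest. VIM, vimentin, stood at 4.41, 10.1 and 7.11 against 569, 699.9 and 596 (-6.30 ± 0.28, adjusted p = 7.07e-05), with all 3 libraries labelled CFPAC-1 close together. RIPK4, a kinase needed for keratinocyte differentiation, stood at 0, 0.0140 and 0 FPKM against 23.00, 76.0 and 78.5 (-5.72 ± 0.47, adjusted p = 7.03e-04). COL18A1, the basement membrane collagen from which endostatin is cut, stood at 0.225, 0.372 and 0.252 against 6.39, 171 and 169.8 (-5.55 ± 1.22, adjusted p = 0.0240). Its difference was -2.53 against control 1 and -7.06 against controls 2 and 3, and it missed the threshold without CFPAC-1 control 2 (0.0723) or 3 (0.0735) and without BxPC-3 control 1 (0.0725), 2 (0.0871) or 3 (0.0889). S100A4, an S100 protein of mesenchymal cells, stood at 4.11, 8.60 and 7.37 against 1292, 115 and 112 (-5.11 ± 0.97, adjusted p = 0.0144). CFPAC-1 control 1 held the most S100A4, and the call was lost without BxPC-3 control 1 (0.0544), 2 (0.0576) or 3 (0.0606).

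Receptors and signalling genes among the lower genes were near 0 in every BxPC-3 library. NTSR1, a neurotensin receptor, stood at 0.0126, 0.0881 and 0.0336 FPKM against 52.7, 39.2 and 39.5 (-5.41 ± 0.17, adjusted p = 2.96e-05, limma). CD81, a tetraspanin found on most cells, stood at 0.00625, 0.0959 and 0.0360 against 14.4, 39.1 and 37.5 (-4.78 ± 0.38, adjusted p = 6.29e-04). ARRB1, beta-arrestin 1, which binds active receptors coupled to G proteins, stood at 0.396, 0.423 and 0.386 against 51.9, 21.3 and 35.1 (-4.64 ± 0.32, adjusted p = 3.44e-04). RAB34, a small GTPase that acts in building primary cilia, stood at 0, 0.219 and 0.0209 against 21.3, 20.3 and 27.4 (-4.47 ± 0.18, adjusted p = 5.32e-05), with CFPAC-1 control 1 between controls 2 and 3. EEF1A2, a translation elongation factor of muscle and neurons, stood at 0.0561, 0.0986 and 0.0565 against 13.9, 34.0 and 39.2 (-4.69 ± 0.38, adjusted p = 6.63e-04). HOXB4 and HOXC10 are homeobox genes, which mark position along the body axis. HOXB4 stood at 0.0266, 0.0565 and 0.0238 FPKM against 16.03, 18.4 and 18.96 (-4.18 ± 0.14, adjusted p = 3.12e-05) and HOXC10 at 1.28, 0.768 and 0.617 against 18.2, 51.1 and 50.7 (-4.32 ± 0.42, adjusted p = 0.00130). FADS2, a fatty acid desaturase, stood at 0.915, 1.03 and 1.24 against 19.02, 58.0 and 54.7 (-4.29 ± 0.43, adjusted p = 0.00141).

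The gene groups described next were read as counts of passing members beside the share of all tested genes, 11.1% higher and 10.4% lower, and the median difference of all tested genes, -0.06. Members of a list that were not tested lay under the filter or, among the glutathione and glucuronic acid transferases, were absent from the deposited table. A gene under 1 FPKM in BxPC-3 and in 1 kind of CFPAC-1 library was not tested, whatever its level in the other kind. Some genes stand in more than 1 list (67 of 1007 listed genes).

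**Figure D3:**
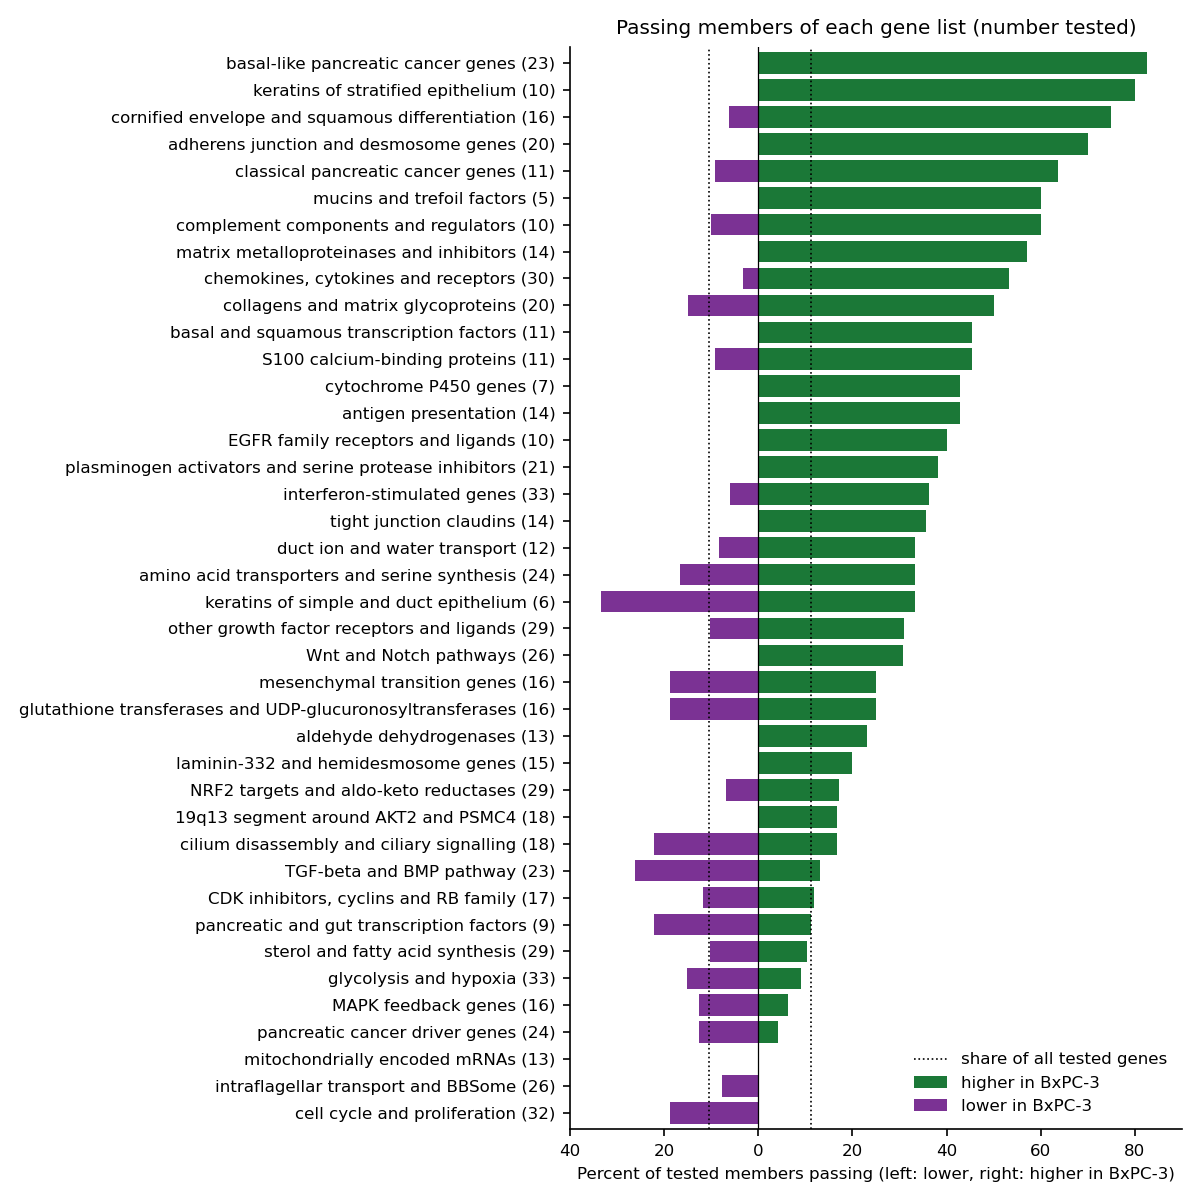
Percent of the tested members of each gene list that passed and were higher (green, right) or lower (purple, left) in BxPC-3, for lists with at least 5 tested members, whose number stands in parentheses. Dotted lines mark 11.1% higher and 10.4% lower, the shares over all tested genes; basal-like genes, stratified keratins and cornified envelope genes lie furthest right.

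Stratified and squamous epithelium genes were higher in BxPC-3. Of 14 stratified keratins 10 were tested and 8 were higher, none lower (median difference 4.33), and of 27 cornified envelope and squamous differentiation genes 16 were tested, 12 higher and 1 lower (median 3.46). CSTA, cystatin A of the cornified envelope, stood at 33.2, 40.5 and 42.8 FPKM in BxPC-3 and 0.206, 0 and 0.0394 in the libraries labelled CFPAC-1 (5.20 ± 0.17, adjusted p = 2.96e-05, limma). SPRR1B, an envelope protein, was listed at 0 in all 3 libraries labelled CFPAC-1 and stood at 36.6, 33.5 and 34.0 FPKM in BxPC-3 (adjusted p = 1.87e-05). Not every keratin followed: KRT14 stood at 8.52, 14.2 and 13.3 FPKM in BxPC-3 and 25.4, 0 and 0 in the others (adjusted p = 0.289), and KRT16 at 3.28, 2.56 and 3.17 and 29.7, 0.148 and 0.205 (adjusted p = 0.930). In both, CFPAC-1 control 1 lay above every BxPC-3 library while controls 2 and 3 lay below. The 1 lower gene was CNFN, cornifelin, at 0.446, 0.369 and 0.0776 against 1.15, 2.14 and 1.12 FPKM (-0.92 ± 0.22, adjusted p = 0.0340), a call lost in the fits without CFPAC-1 control 2 (0.104) or 3 (0.0750) or BxPC-3 control 1 (0.0532), 2 (0.108) or 3 (0.123).

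The keratins of simple and duct epithelium were divided, with 2 of 6 tested higher and 2 lower. KRT23 was higher, at 2.86, 11.9 and 11.6 FPKM against 0, 0 and 0.0187 (3.09 ± 0.48, adjusted p = 0.00719, limma), as was KRT7. KRT8 was lower, at 80.2, 149 and 131 against 274, 270.3 and 316 (-1.29 ± 0.26, adjusted p = 0.0173), a call lost without CFPAC-1 control 2 (0.0580) or 3 (0.0703) or BxPC-3 control 3 (0.0588). Its partner KRT18 was lower, at 135, 186 and 172 against 254, 318 and 311 (-0.84 ± 0.19, adjusted p = 0.0264), a call lost without CFPAC-1 control 2 (0.105) or 3 (0.103) or BxPC-3 control 2 (0.0702) or 3 (0.0857).

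The transcription factors of basal and squamous epithelium were also higher where they were tested and passed, with 5 of 11 tested higher and none lower (median 3.08). Under the filter, TFAP2C was listed at 0 in all 3 BxPC-3 libraries and stood at 0, 6.81 and 5.65 FPKM in those labelled CFPAC-1. SOX2, also under the filter, lay the other way, at 5.42, 0.551 and 0.695 against 0, 0.208 and 0.0864. TP63, the gene of p63, stood at 9.89, 6.62 and 7.48 FPKM in BxPC-3 and 0.0245, 0 and 0.0144 in the libraries labelled CFPAC-1 (3.13 ± 0.18, adjusted p = 1.63e-04, limma). SOX15, a factor of the SOX family, stood at 26.5, 32.0 and 28.8 against 1.09, 0.786 and 0.965 (3.95 ± 0.15, adjusted p = 4.23e-05). KLF5, a factor of proliferating epithelium, stood at 53.9, 70.8 and 83.4 against 45.9, 1.49 and 1.81 FPKM and did not pass (adjusted p = 0.0849). Of 26 pancreatic and gut lineage factors only 9 were tested, with 1 higher and 2 lower (median -0.64). FOXA1, which opens chromatin in gut and gland epithelium, stood at 10.1, 7.26 and 6.70 against 0.0781, 0.200 and 0.330 (2.89 ± 0.20, adjusted p = 3.31e-04), and ETV5, a factor downstream of growth factor signalling, at 3.83, 2.65 and 2.47 against 15.9, 9.25 and 10.6 (-1.68 ± 0.25, adjusted p = 0.00602). HNF4A, a factor of gut and liver epithelium, lay under the filter. It stood at 4.25, 0.00436 and 0 FPKM in the libraries labelled CFPAC-1, present in control 1 and near 0 in the other two, and at most 0.156 in BxPC-3.

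Lists of genes known from the basal-like and the classical subtype of pancreatic cancer both held more higher than lower genes. Of 25 basal-like genes 23 were tested, 19 higher and none lower (median 3.55), and of 32 classical genes only 11 were tested, 7 higher and 1 lower (median 1.56). The summed FPKM of the basal-like list was 2828 to 3945 in BxPC-3, 275 in CFPAC-1 control 1 and 41.3 to 42.2 in controls 2 and 3. The classical list summed to 114 to 135 in BxPC-3, 257 in control 1 and 121 to 123 in controls 2 and 3, so its sum did not separate the lines. Its members under the filter were in part high in CFPAC-1 control 1 alone, where the cadherin CDH17 reached 128 FPKM, the mucin MUC13 46.1 and the brush border myosin MYO1A 35.1, against at most 0.696 for any of them in the other 5 libraries. Among classical genes CEACAM6, a cell adhesion glycoprotein, stood at 24.0, 25.8 and 28.9 FPKM against 1.54, 0 and 0 (4.32 ± 0.39, adjusted p = 9.65e-04, limma), and ANXA10, an annexin of gastric epithelium, at 22.9, 18.5 and 19.6 against 0.222, 0 and 0 (4.31 ± 0.17, adjusted p = 4.23e-05). PLS1, an actin bundler of microvilli, was lower, at 0.697, 0.466 and 0.638 against 3.35, 3.49 and 3.73 (-1.50 ± 0.14, adjusted p = 0.00121). Few mucin and trefoil genes were expressed, with 5 of 18 tested and 3 higher. MUC4, a membrane mucin, stood at 3.95, 5.44 and 4.69 against 0.00245, 0.00964 and 0 FPKM (2.50 ± 0.16, adjusted p = 2.39e-04), while MUC1, the mucin of most duct carcinomas, stood at 7.92, 11.7 and 8.26 against 9.23, 1.49 and 1.58 (adjusted p = 0.147), with CFPAC-1 control 1 among the BxPC-3 values.

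Most tested adherens junction and desmosome genes were higher in BxPC-3. All 20 tested of 25 adherens junction and desmosome genes had a positive difference, and 14 passed (median 2.51), 9 of them in each fit without 1 library. Under the filter, 3 cadherin genes were high in CFPAC-1 control 1 alone. CDH17 stood at 0, 0.0158 and 0.00648 FPKM against 128, 0.0196 and 0.0140, CDHR2 at 0.0556, 0.00663 and 0.0365 against 19.7, 0.0720 and 0.0434, and CDHR5 at 0.102, 0.0291 and 0.0449 against 6.10, 0.0250 and 0. DSC2 and GRHL1, also under the filter, were at most 1.93 FPKM in any library. The E-cadherin difference was 5.22 ± 0.18 (adjusted p = 3.12e-05, limma), 5.00 against CFPAC-1 control 1 and 5.33 against controls 2 and 3. DSP, desmoplakin, which ties desmosomes to keratin, stood at 43.8, 77.4 and 87.4 FPKM against 4.20, 8.60 and 9.53 (3.07 ± 0.38, adjusted p = 0.00301). EPCAM, an epithelial adhesion protein, stood at 35.6, 32.7 and 38.0 against 14.8, 0.963 and 1.04 (3.19 ± 0.81, adjusted p = 0.0377); that call was lost without CFPAC-1 control 2 (0.109) or 3 (0.111), without BxPC-3 control 1 (0.0970), 2 (0.117) or 3 (0.123), and with libraries paired (0.0564). Of 14 tested tight junction genes 5 were higher, 3 with libraries paired, none was lower, and 9 did not pass. CLDN7, a claudin, stood at 38.9, 42.0 and 29.5 against 13.5, 12.4 and 13.3 (1.41 ± 0.18, adjusted p = 0.00358), and TJP1, the scaffold ZO-1, at 10.5, 12.6 and 14.9 against 4.43, 4.10 and 4.29 (1.36 ± 0.17, adjusted p = 0.00335). CLDN4 was unlike its group in control 3 of both lines, at 40.5, 47.0 and 0.464 and 7.21, 5.53 and 0.162 FPKM (adjusted p = 0.426).

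Tested mesenchymal transition genes did not move one way. Of 28 listed genes 16 were tested, 4 higher and 3 lower (median 0.62), and the median fell to 0.23 against controls 2 and 3. The lower genes held vimentin and S100A4, given above, and SNAI1, the SNAIL repressor, at 1.48, 0.810 and 0.842 against 2.64, 6.94 and 7.34 FPKM (-1.62 ± 0.36, adjusted p = 0.0242, limma). The SNAI1 call was lost without CFPAC-1 control 2 (0.0836) or 3 (0.0810), without BxPC-3 control 2 (0.0993) or 3 (0.0961), and with libraries paired (0.0671). On the other side FN1, fibronectin, stood at 1.72, 1.44 and 1.45 against 0.0181, 0.155 and 0.212 FPKM (1.17 ± 0.15, adjusted p = 0.00363), a low level in both lines. MMP14, the membrane collagenase, stood at 204, 174 and 145 against 13.5, 3.96 and 3.73 (4.64 ± 0.46, adjusted p = 0.00135). ZEB1, a repressor of E-cadherin, and CDH2, N-cadherin, lay under the filter, ZEB1 at 0.0134, 0.104 and 0.108 FPKM against 2.58, 0.372 and 1.15 and CDH2 at 0.172, 0.435 and 0.460 against 0, 4.13 and 3.84. So did SPARC, at 0.0577, 0.0243 and 0.0974 against 0.658, 2.73 and 2.61. MMP2, THY1 and TWIST2, also under the filter, were near 0 in BxPC-3 and CFPAC-1 control 1 and higher in controls 2 and 3. LOX leaned the other way at a low level, at 0.735, 0.857 and 1.09 against 0.0279, 0.768 and 0.602.

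Matrix genes and the enzymes that cut matrix were mostly higher where they were tested and passed. Under the filter, MMP2 stood at 0.0428, 0.0356 and 0.0101 FPKM against 0, 19.3 and 18.6. The collagen gene COL5A2 stood at 0.179, 0.3555 and 0.246 against 0.178, 50.7 and 37.2, and TNC at 0 in all 3 against 13.9, 0.424 and 0.505. MMP10 lay the other way at a low level, at 0.208, 0.631 and 0.733 against 0, 0.0806 and 0.183. Of 20 tested collagen and glycoprotein genes 10 were higher and 3 lower, of 14 metalloproteinase genes 8 were higher and none lower, 4 of them in each fit without 1 library. The proteoglycan genes were AGRN, agrin, at 165, 139 and 122 FPKM against 34.8, 39.5 and 39.1 (1.87 ± 0.17, adjusted p = 0.00104, limma), and GPC1, glypican 1, at 64.4, 87.4 and 76.1 against 19.8, 16.8 and 16.1 (2.05 ± 0.18, adjusted p = 8.87e-04). THBS1, thrombospondin 1, stood at 49.4, 92.7 and 101 against 1.63, 8.67 and 8.89 (3.63 ± 0.58, adjusted p = 0.00811). NID1, the basement membrane linker nidogen 1, was lower, at 0.278, 0.425 and 0.456 against 5.18, 24.8 and 24.9 (-3.53 ± 0.57, adjusted p = 0.00820). MMP1, interstitial collagenase, stood at 42.8, 65.0 and 72.4 against 0.196, 1.72 and 1.16 (4.96 ± 0.36, adjusted p = 4.47e-04), and TIMP3, an inhibitor of such enzymes, at 28.5, 32.3 and 34.3 against 0, 0.409 and 0.785 (4.59 ± 0.24, adjusted p = 1.19e-04). All 15 laminin-332 and hemidesmosome genes were tested and 3 were higher (median 0.87), among them the laminin chain LAMA3 at 13.5, 13.6 and 15.4 against 1.34, 0.0681 and 0.0762 (3.44 ± 0.33, adjusted p = 0.00124), while ITGB1, the common integrin chain, stood at 65.9, 93.7 and 70.3 against 92.1, 106 and 101 (adjusted p = 0.186).

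Of 21 tested plasminogen activator and serine protease inhibitor genes 8 were higher and none lower (median 2.67). The membrane protease ST14, matriptase, and its inhibitor SPINT1 were higher together, ST14 at 48.7, 39.4 and 34.1 FPKM against 5.65, 0.171 and 0.0927 (4.34 ± 0.70, adjusted p = 0.00851, limma) and SPINT1 at 88.6, 61.7 and 55.0 against 0.319, 1.39 and 2.08 (4.99 ± 0.36, adjusted p = 4.18e-04). PLAU, the urokinase activator that SERPINB2 inhibits, stood at 141, 183 and 180.3 against 31.5, 259 and 258 and did not pass (adjusted p = 0.784), with BxPC-3 between CFPAC-1 control 1 and controls 2 and 3.

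Of the ligands of the EGF receptor 4 were higher in BxPC-3. They were the only calls among 10 tested family members, and none was lower (median 1.04). HBEGF stood at 40.5, 211 and 212 FPKM against 5.00, 8.49 and 7.41 (3.98 ± 0.66, adjusted p = 0.00933, limma), and TGFA at 16.3, 36.5 and 40.9 against 2.29, 4.85 and 4.84 (2.64 ± 0.41, adjusted p = 0.00736). In both genes BxPC-3 control 1 was lowest of its line and still above each library labelled CFPAC-1. BTC, betacellulin, stood at 2.04, 2.02 and 2.28 against 0.105, 0 and 0.0408 (1.57 ± 0.14, adjusted p = 9.19e-04). AREG, amphiregulin, the fourth ligand, stood at 39.7, 204 and 207 against 11.9, 24.3 and 24.8 (2.56 ± 0.69, adjusted p = 0.0448), a call lost without CFPAC-1 control 1 (0.0628), 2 (0.0996) or 3 (0.0975) and without BxPC-3 control 2 (0.153) or 3 (0.150). EREG, epiregulin, was tested and did not pass, at 8.30, 78.4 and 87.3 against 38.8, 18.4 and 19.7 (adjusted p = 0.631), with BxPC-3 control 1 below each library labelled CFPAC-1 and controls 2 and 3 above them. EGF, EPGN, ERBB4, NRG2 and NRG4 stayed under the filter. Of these, NRG2 stood at 0.0592, 0.0375 and 0.0416 FPKM against 0, 5.07 and 4.88, and the rest were at most 0.598 in any library. Other growth factor genes gave 9 higher and 3 lower of 29 tested. IGFBP5, which binds insulin-like growth factors, was listed at 0 in all 3 libraries labelled CFPAC-1 and stood at 8.89, 48.5 and 50.1 FPKM in BxPC-3 (adjusted p = 0.00398). FGFR1 and its ligand FGF2 were lower, FGFR1 at 0.146, 0.289 and 0.350 against 3.33, 3.83 and 3.81 (-1.89 ± 0.15, adjusted p = 5.90e-04) and FGF2 at 0.0151, 0 and 0 against 5.29, 2.67 and 2.33 (-2.08 ± 0.26, adjusted p = 0.00342).

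Among genes of growth signalling, of 16 tested MAPK feedback genes 1 was higher and 2 were lower (median -0.04). DUSP6, the ERK phosphatase, stood at 26.2, 84.0 and 86.1 FPKM against 8.40, 9.68 and 10.2 (2.49 ± 0.47, adjusted p = 0.0140, limma), lost without BxPC-3 control 2 (0.0631) or 3 (0.0600). Of 24 tested driver genes 1 was higher and 3 were lower, with only SMAD4 lower once libraries were paired. SMAD4 was listed at 0 in all 3 BxPC-3 libraries and 1.63, 1.48 and 1.82 FPKM in the others (adjusted p = 0.00136). RNF43, a brake on Wnt receptors, was higher, at 2.11, 1.13 and 1.42 against 0.0798, 0.0203 and 0.0409 (1.27 ± 0.18, adjusted p = 0.00574). AKT2, a kinase gene within a segment of 19q13, stood at 8.80, 8.88 and 7.19 against 4.63, 80.2 and 80.00 (adjusted p = 0.253), above control 1 and far below controls 2 and 3.

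Of 32 cell cycle genes, all tested, 6 were lower and none higher (median -0.38), 3 with libraries paired and none in every fit without 1 library. TYMS, thymidylate synthase, stood at 33.3, 24.1 and 24.8 FPKM against 50.8, 81.0 and 87.9 (-1.36 ± 0.26, adjusted p = 0.0151, limma). The TYMS call was lost without CFPAC-1 control 2 (0.0623) or 3 (0.0601), without BxPC-3 control 2 (0.0743) or 3 (0.0713), and with libraries paired (0.0559). PCNA, the clamp of replication forks, stood at 180.3, 144 and 158 against 176, 99.4 and 97.8 (adjusted p = 0.317). Among 17 tested CDK inhibitors, cyclins and RB family genes 2 were higher and 2 lower. CDKN1A, the p53 target p21, stood at 52.7, 63.7 and 62.8 against 10.4, 23.3 and 24.1 (1.66 ± 0.33, adjusted p = 0.0172), lost without BxPC-3 control 2 (0.0783) or 3 (0.0750), and RBL2, an RB relative, at 6.91, 7.75 and 8.60 against 3.48, 2.85 and 2.51 (1.15 ± 0.17, adjusted p = 0.00580).

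Genes of the primary cilium, the organelle that the starvation served to induce, were compared in the control libraries, which were not starved. The shares over all tested genes were 11.1% higher and 10.4% lower. Of 26 tested intraflagellar transport and BBSome genes 2 were lower and none higher (median 0.01). IFT27, a small GTPase of the transport complex, stood at 0.26, 0.30 and 0.29 FPKM against 1.60, 3.54 and 3.62 (-1.56 ± 0.26, adjusted p = 0.00872, limma), while IFT52, a core subunit, stood at 10.9, 11.8 and 12.1 against 4.82, 14.2 and 14.1 (adjusted p = 0.760). Of 18 tested disassembly and ciliary signalling genes 3 were higher and 4 lower (median -0.24). NEDD9, a scaffold that activates the disassembly kinase AURKA, stood at 5.70, 14.1 and 14.7 against 0, 0.0442 and 0.0309 (3.51 ± 0.35, adjusted p = 0.00135), and GLI3, a Hedgehog transcription factor processed at the cilium, at 1.48, 1.01 and 1.03 against 0, 0.0495 and 0.0622 (1.06 ± 0.15, adjusted p = 0.00579). Lower were NEK2, a kinase of the centrosome, at 3.77, 2.42 and 2.21 against 7.39, 9.58 and 9.67 (-1.39 ± 0.21, adjusted p = 0.00701), and PKD1, the ciliary polycystin, at 4.17, 2.28 and 2.36 against 8.31, 8.84 and 9.46 (-1.36 ± 0.22, adjusted p = 0.00831). AURKA itself stood at 38.8, 14.8 and 17.6 against 30.7, 24.2 and 38.9 and did not pass (adjusted p = 0.420).

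Cytokines of the interleukin 1 family were among the immune genes higher in BxPC-3. Of 30 tested chemokine, cytokine and receptor genes 16 were higher and 1 lower (median 1.66). Under the filter, CCL2 stood at 0, 0.109 and 0.0703 FPKM against 0, 45.8 and 48.0, and CX3CL1 at 0, 0.0265 and 0.0160 against 0, 2.86 and 3.31. TSLP, also under the filter, lay the other way, at 0.708, 6.32 and 5.94 against 0, 0 and 0.0127. IL1A stood at 37.5, 81.9 and 89.3 FPKM against 0.302, 0 and 0.0246 (5.91 ± 0.35, adjusted p = 1.91e-04, limma) and IL1B at 22.5, 98.0 and 97.7 against 0.0970, 0.0157 and 0.0361 (5.87 ± 0.57, adjusted p = 0.00127). The receptor antagonist IL1RN, which blocks both, stood at 14.4, 28.1 and 28.97 against 0.0862, 0 and 0 (4.53 ± 0.28, adjusted p = 2.31e-04), so agonists and antagonist were high in the same libraries. CXCL1, a neutrophil chemokine, was the 1 lower gene among those tested, at 24.5, 9.88 and 7.34 against 159, 41.3 and 44.9 (-2.35 ± 0.64, adjusted p = 0.0468, limma). The CXCL1 call was lost without CFPAC-1 control 2 (0.0709) or 3 (0.0824) or BxPC-3 control 2 (0.156) or 3 (0.156). Complement gave 6 higher and 1 lower of 10 tested, none lower with libraries paired. Among them were C3, the central component, at 50.3, 33.3 and 31.8 against 1.82, 0.114 and 0.0935 FPKM (4.68 ± 0.42, adjusted p = 9.58e-04) and C1R, a protease of the classical pathway, at 3.84, 9.00 and 5.43 against 0.262, 0.0952 and 0.157 (2.54 ± 0.28, adjusted p = 0.00206).

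Interferon-stimulated genes gave 12 higher and 2 lower of 33 tested (median 0.84), 8 of the 14 in each fit without 1 library. IFITM1, an antiviral membrane protein, stood at 76.9, 121 and 64.6 FPKM against 1.06, 2.10 and 2.30 (4.95 ± 0.30, adjusted p = 2.09e-04, limma), and IFI27 at 22.96, 16.6 and 14.2 against 0.0495, 0.0458 and 0.0459 (4.15 ± 0.20, adjusted p = 9.41e-05). IRF7, the factor that amplifies the interferon response, was lower, at 0.0738, 0.0216 and 0.0346 against 2.86, 3.70 and 3.58 (-2.06 ± 0.15, adjusted p = 4.47e-04). BST2, tetherin, split the libraries labelled CFPAC-1 and stood at 107, 75.6 and 73.2 FPKM against 139, 0.335 and 0.142 (adjusted p = 0.187). Of 14 tested antigen presentation genes 6 were higher and none lower. B2M, the light chain of HLA class I, stood at 129.6, 123 and 139 against 34.1, 47.1 and 53.8 (1.54 ± 0.21, adjusted p = 0.00419).

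Detoxifying enzymes differed gene by gene. Of 29 tested NRF2 targets and aldo-keto reductases 5 were higher and 2 lower, but 1 and 1 with libraries paired. ABCC2, under the filter, stood at 0.0409, 0.276 and 0.338 FPKM against 28.6, 0.405 and 0.397. GPX2, a glutathione peroxidase of gut epithelium, stood at 19.6, 28.1 and 12.3 FPKM against 0.224, 0 and 0 (4.22 ± 0.30, adjusted p = 4.18e-04, limma). HMOX1, heme oxygenase 1, stood at 1.21, 1.16 and 0.977 against 5.73, 52.5 and 48.2 (-3.63 ± 0.79, adjusted p = 0.0239), lost without CFPAC-1 control 2 (0.0713) or 3 (0.0760) or BxPC-3 control 1 (0.0690), 2 (0.0882) or 3 (0.0907). Aldehyde dehydrogenases gave 3 higher of 13 tested, led by ALDH1A3, which makes retinoic acid, at 217, 365 and 396 against 26.2, 16.7 and 16.2 (3.97 ± 0.30, adjusted p = 5.20e-04, limma). Under the filter, ALDH2 stood at 0.727, 0.555 and 0.358 against 13.6, 0.133 and 0.137, below CFPAC-1 control 1 and above controls 2 and 3. ALDH3B2, also under the filter, stood at 0.398, 0.585 and 0.538 in BxPC-3 and was listed at 0 in the others. ALDH3A1 stood at 173, 212 and 169 against 66.6, 0.0975 and 0.0262 and did not pass (adjusted p = 0.0586), with CFPAC-1 control 1 nearest BxPC-3 and controls 2 and 3 near 0. Glutathione and glucuronic acid transferases gave 4 higher and 3 lower of 16 tested. UGT1A10, UGT1A6 and UGT1A1, which join different first exons to the same later exons and so share reads, stood at 42.4, 35.4 and 45.1, at 11.4, 8.15 and 9.05 and at 1.63, 4.09 and 4.52 FPKM in BxPC-3 and at most 0.0847 in any library labelled CFPAC-1 (adjusted p = 1.87e-05, 9.52e-05 and 0.00630). The glutathione transferases GSTT2B and GSTA4 were lower, GSTT2B at 0.347, 0.192 and 0.183 against 3.42, 2.95 and 2.39 (adjusted p = 0.00142) and GSTA4 at 0.0901, 0.143 and 0.322 against 2.06, 1.56 and 1.76 (adjusted p = 0.00367). Of 7 tested cytochrome P450 genes 3 were higher, among them CYP2S1 at 16.3, 11.4 and 10.9 against 1.41, 1.78 and 1.84 (2.35 ± 0.20, adjusted p = 7.50e-04).

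Among metabolic genes, glycolysis and hypoxia gave 3 higher and 5 lower of 33 tested (median 0.21), with 3 of these 8 calls kept in each fit without 1 library, and sterol and fatty acid synthesis 3 and 3 of 29 (median -0.26). HIF1A, the oxygen-regulated transcription factor, stood at 46.8, 51.5 and 58.3 FPKM against 6.85, 13.4 and 13.6 (2.17 ± 0.28, adjusted p = 0.00369, limma), while ANGPTL4, a lipase inhibitor induced by hypoxia and fatty acids, was lower, at 2.00, 5.29 and 5.16 against 29.9, 73.4 and 57.9 (-3.40 ± 0.43, adjusted p = 0.00357). ACLY, which makes cytosolic acetyl-CoA, stood at 38.1, 32.4 and 30.3 against 119, 96.4 and 101 (-1.62 ± 0.17, adjusted p = 0.00166) and PMVK, of the mevalonate pathway, at 19.98, 9.60 and 10.6 against 63.4, 48.6 and 50.7 (-2.0 ± 0.30, adjusted p = 0.00608), both lower. The sterol list had a median of 0.70 against CFPAC-1 control 1 and -0.70 against controls 2 and 3, and SCD, the stearoyl-CoA desaturase, stood at 199.9, 275 and 284 against 113, 1304 and 1317 (adjusted p = 0.413). The serine synthesis enzymes PSAT1 and PSPH were lower, PSAT1 at 15.4, 18.2 and 19.2 against 43.5, 48.3 and 49.0 (-1.37 ± 0.16, adjusted p = 0.00235) and PSPH at 3.34, 2.86 and 3.57 against 11.2, 10.1 and 12.4 (-1.52 ± 0.16, adjusted p = 0.00160). Amino acid transport and serine synthesis together gave 8 higher and 4 lower of 24 tested, with the glutamine carrier SLC38A5 at 41.7, 25.0 and 20.1 against 0.0907, 0.0580 and 0 (4.77 ± 0.28, adjusted p = 1.67e-04) and ASS1, which makes argininosuccinate, at 40.9, 51.0 and 50.1 against 17.3, 7.58 and 7.58 (2.12 ± 0.33, adjusted p = 0.00732).

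In developmental signalling, Wnt and Notch genes gave 8 higher and none lower of 26 tested (median 0.57). Under the filter, DKK3 was listed at 0 in all 3 BxPC-3 libraries and stood at 0.193, 11.7 and 12.1 FPKM in the others. FZD1 stood at 1.03, 0.747 and 0.867 against 16.7, 0.541 and 0.569. ASCL2, also under the filter, was at most 0.0918 FPKM in BxPC-3 and listed at 0 in the others. The Wnt ligand WNT10A stood at 16.2, 15.8 and 15.8 FPKM against 0.558, 0.233 and 0.355 (3.62 ± 0.15, adjusted p = 5.91e-05, limma), and WNT7B at 22.2, 26.8 and 24.6 against 5.91, 8.87 and 9.04 (1.53 ± 0.20, adjusted p = 0.00398). NRARP, a target of Notch, stood at 13.3, 113 and 108 against 1.84, 49.8 and 48.4 and did not pass (adjusted p = 0.463), with control 1 lowest in both lines. TGF-beta and BMP genes gave 3 higher and 6 lower of 23 tested (median -0.03), 3 and 4 with libraries paired. BMP2, a ligand, stood at 3.68, 13.1 and 13.4 against 0.479, 0.211 and 0.0993 (2.97 ± 0.46, adjusted p = 0.00718), and ID2, a target of BMP signalling through SMAD4, at 0.151, 0.147 and 0.141 against 4.05, 2.40 and 2.03 (-1.70 ± 0.22, adjusted p = 0.00381). ID1, another such target, was higher, at 262, 189.8 and 172 against 134, 109 and 114 (0.78 ± 0.21, adjusted p = 0.0444), so ID1 and ID2 differed in opposite directions. The ID1 call was lost without CFPAC-1 control 2 (0.149) or 3 (0.140) and without BxPC-3 control 1 (0.0586), 2 (0.125) or 3 (0.0774).

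Duct transport genes gave 4 higher and 1 lower of 12 tested of 28. Beside AQP3, the chloride channel ANO1 stood at 22.8, 29.3 and 29.9 FPKM against 2.30, 0.575 and 0.577 (3.80 ± 0.33, adjusted p = 8.29e-04, limma) and the sodium channel subunit SCNN1A at 38.8, 35.9 and 34.6 against 8.65, 1.40 and 1.49 (3.27 ± 0.54, adjusted p = 0.00939). The lower gene was SLC4A2, an anion exchanger, at most 25.8 FPKM in BxPC-3 against at least 36.3 in the libraries labelled CFPAC-1 (-1.08 ± 0.26, adjusted p = 0.0314), a call lost without CFPAC-1 control 2 (0.0895) or 3 (0.0898) or BxPC-3 control 2 (0.126) or 3 (0.112).

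Markers of other cell types were few. None of 13 acinar and endocrine markers reached the filter, and 2 of 11 fibroblast, 2 of 12 immune and 1 of 8 endothelial markers did. Of these, 1 fibroblast marker was higher in BxPC-3, and 1 immune and 1 endothelial marker were lower. The fibroblast and immune calls were not kept in every fit without 1 library, nor the immune call with libraries paired. Fibroblast markers summed to 2.94 to 3.36 FPKM in BxPC-3, 37.8 in CFPAC-1 control 1, of which LUM (lumican) gave 36.8, and 7.96 to 8.16 in controls 2 and 3. COL3A1, a fibrillar collagen, stood at 0.0733, 1.98 and 2.06 FPKM in the libraries labelled CFPAC-1 and THY1, a surface glycoprotein, at 0.00654, 1.61 and 1.72, against at most 0.235 and 0.00784 in BxPC-3. The fibroblast genes DCN and FAP were at most 0.0453 in any library and POSTN was listed at 0 in all 6. Immune markers summed to 5.84 to 6.44 FPKM in BxPC-3 and 10.7 to 13.4 in the others, and PTPRC, the marker of all leukocytes, was at most 0.00981. Endothelial markers summed to 2.88 to 5.01 and 14.7 to 18.6 FPKM, nearly all of it EGFL7, with PECAM1 at most 0.188. None of the 13 mitochondrially encoded mRNAs passed (median 0.33, -0.44 against control 1 and 0.61 against controls 2 and 3), and none of 3 tested metallothioneins. The part of these markers in the results was not tested.

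Some differences lay in runs of neighbouring genes, a pattern looked for after the values had been seen. Among tested protein-coding genes, 97 were at most 0.3 FPKM in every BxPC-3 library and at least 1 in every library labelled CFPAC-1, and 249 were the reverse. In BxPC-3, 3 stretches of at least 3 such neighbours were found. The longest held 5 genes at chr10:71747559-72235860 (GRCh38): VSIR, PSAP, CHST3, ASCC1 and ANAPC16. None exceeded 0.287 FPKM in BxPC-3, and in the libraries labelled CFPAC-1 VSIR, an immune checkpoint receptor, stood at 5.27, 2.97 and 2.96, CHST3, a sulfotransferase of chondroitin, at 17.7, 5.47 and 4.96, ASCC1 at 3.90, 10.1 and 8.07 and ANAPC16, a subunit of the anaphase-promoting complex, at 10.2, 18.6 and 18.7. The tested genes on either side were expressed in BxPC-3, SLC29A3 at 2.21, 1.37 and 1.20 and DDIT4, a stress-induced inhibitor of mTOR, at 70.3, 28.6 and 27.5 FPKM. PSAP, the largest of the named lower differences, thus lay inside a stretch near absent in BxPC-3.

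The second stretch held ME2, SMAD4 and MEX3C at chr18:50878734-51218304. ME2, the mitochondrial malic enzyme, was at 0, 0.00710 and 0 FPKM against 1.68, 2.95 and 2.93 (adjusted p = 0.00209, limma), and MEX3C, an RNA-binding ubiquitin ligase, at 0, 0.0143 and 0 against 2.02, 3.64 and 3.87 (adjusted p = 0.00192). Of their tested neighbours, SKA1 stood at 9.07, 5.94 and 1.85 and MBD2 at 12.4, 14.8 and 15.7 FPKM in BxPC-3. The other stretch, chr21:41739369-42010387, held RIPK4, C2CD2 and ZBTB21. C2CD2 and ZBTB21, a zinc finger repressor, were listed at 0 in all 3 BxPC-3 libraries. In the others C2CD2 stood at 3.24, 1.90 and 1.92 FPKM (adjusted p = 0.00227) and ZBTB21 at 1.60, 1.98 and 1.94 (adjusted p = 0.00114), with MX2 on one side at 5.49, 3.52 and 5.15 and TFF2 on the other at 1.53, 2.47 and 1.71 in BxPC-3. On 9p21, beside the CDKN2A locus, MTAP, an enzyme of methionine salvage, was also listed at 0 in all 3 BxPC-3 libraries, and stood at 1.01, 0.510 and 0.559 FPKM in the others, too low for the filter. DNA copy number was not measured.

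**Figure D4:**
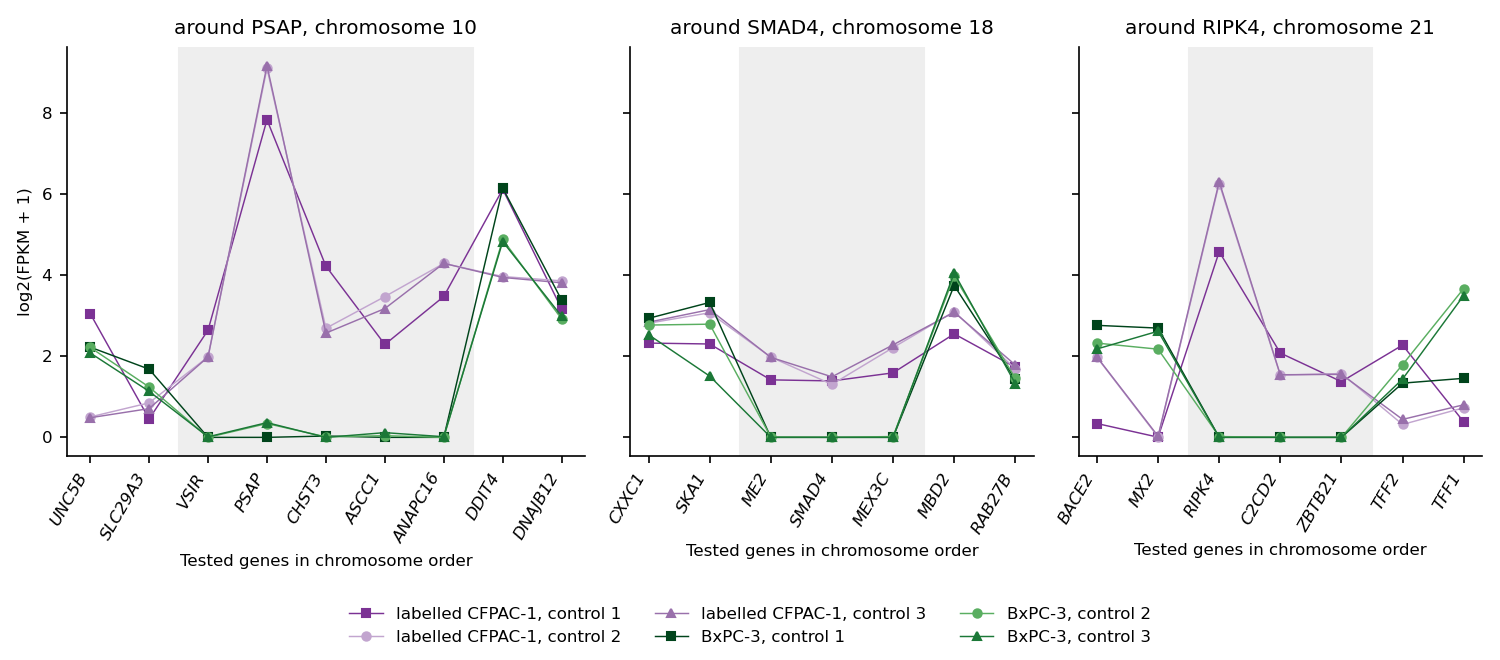
Level, as log2(FPKM + 1), of tested protein-coding genes in chromosome order around PSAP, SMAD4 and RIPK4, 1 line per library; shading marks the genes near absent in BxPC-3. The green BxPC-3 lines drop to between 0 and 0.287 FPKM inside the shading and are expressed on both sides of it.

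Runs near absent in the libraries labelled CFPAC-1 held members of gene families. A run of 8 SPRR genes at chr1:152985231-153113515 stood between 1.23 and 36.6 FPKM in BxPC-3 and at most 0.0876 in the others, SPRR2 genes being alike enough to share reads. Next to it S100A11, expressed widely, stood at 914, 837 and 832 against 684, 379 and 379 (adjusted p = 0.0585, limma), which did not pass. A run of 4 serpins at chr18:63586989-63903890 held SERPINB13, SERPINB3, SERPINB7 and SERPINB2. SERPINB3, a squamous cell carcinoma antigen with a near-identical neighbour, stood at 23.3, 64.6 and 71.4 FPKM in BxPC-3 and was listed at 0 in all 3 libraries labelled CFPAC-1, and SERPINB5, maspin, just outside the run, stood at 30.2, 71.4 and 78.5 against 106, 0 and 0 (adjusted p = 0.215). The receptors HCAR2, HCAR3 and HCAR1, for hydroxybutyrate, fatty acid metabolites and lactate, at chr12:122701293-122730843 stood at 3.17 to 11.4 FPKM in BxPC-3 and at most 0.247 in the others.

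Genes for which the libraries labelled CFPAC-1 disagreed gave no direction between the lines. For 169 tested genes the difference was at least 1 with opposite signs, with BxPC-3 above control 1 and below controls 2 and 3 in 94 and the reverse in 75, and none of these passed. The first pattern was led by CTGF, a secreted YAP target, which stood at 5.57, 42.5 and 46.8 FPKM in BxPC-3 and 2.77, 243 and 241 in CFPAC-1 controls 1, 2 and 3 (2.67 against control 1, -3.34 against controls 2 and 3). GDF15, a stress cytokine, stood at 9.74, 16.4 and 14.9 against 1.49, 104 and 107, AGR2, a disulfide isomerase of mucus cells, at 21.1, 29.5 and 31.7 against 0.832, 115 and 114, and BASP1, a membrane protein of growth cones, at 45.7, 43.5 and 42.8 against 0, 154 and 167. The remaining genes named for this pattern were B3GNT7, CYP1B1, FBXO27, NXN, RRAD and PTGER4. The reverse pattern was led by FAM83A, an adaptor of growth factor signalling, at 15.9, 10.7 and 11.4 FPKM in BxPC-3 and 139, 0.00374 and 0.0171 in the others (-3.37 and 3.74). UPK3B, a uroplakin of mesothelium and urothelium, stood at 20.00, 30.2 and 28.6 against 240.3, 1.25 and 0.779, and SULF2, which edits heparan sulfate, at 9.90, 5.58 and 6.35 against 76.6, 0.0153 and 0.0572. Of the hydroxysteroid dehydrogenase genes alike enough to share reads, AKR1C1 stood at 10.5, 11.2 and 10.7 against 58.7, 0.00543 and 0 and AKR1C2 at 3.90, 4.35 and 3.98 against 54.3, 0 and 0.0168, and CAMK2N1, SLC22A3, STRIP2, KCNK5 and FAM84B completed the pattern.

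**Figure D5:**
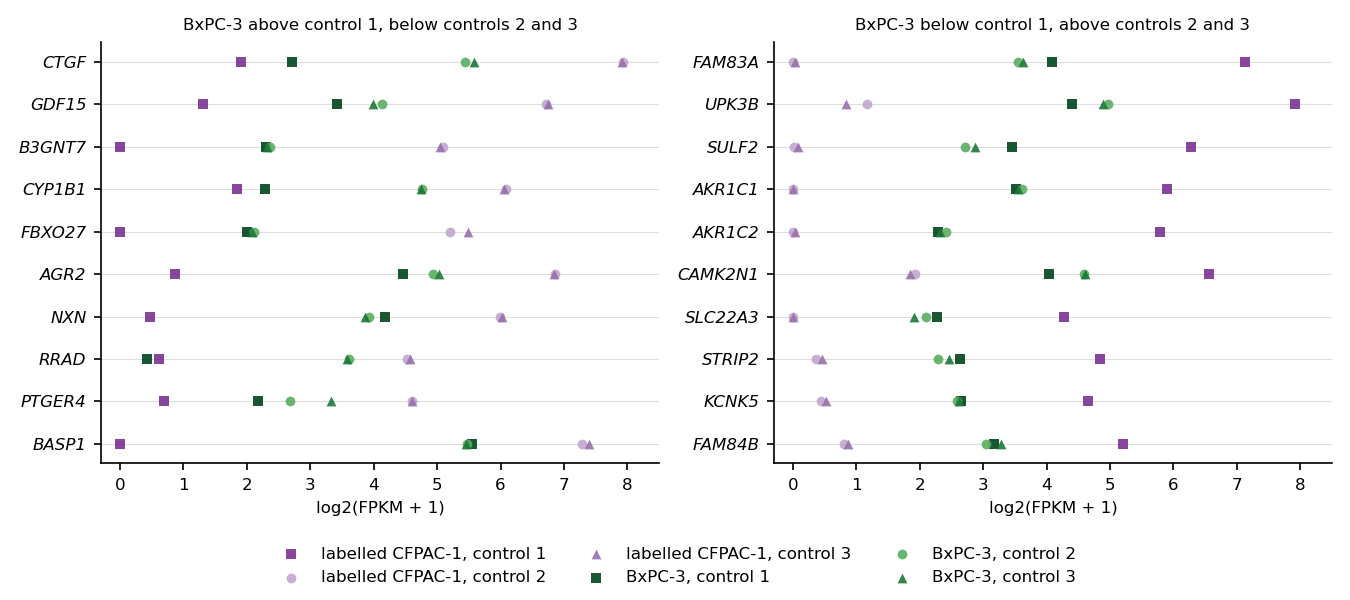
Level, as log2(FPKM + 1), of the 10 leading genes of each opposite pattern in the 6 control libraries. The BxPC-3 points (green) lie between CFPAC-1 control 1 (purple square) and CFPAC-1 controls 2 and 3, except that BxPC-3 control 1 lies just below CFPAC-1 control 1 for RRAD.

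The 19q13 segment around AKT2 and PSMC4 showed the same split over neighbouring genes. Of 18 tested genes 3 were higher and none lower, with a median of 0.73 against CFPAC-1 control 1 and -1.24 against controls 2 and 3. RPS16, a ribosomal protein gene, stood at 239, 290.2 and 285 FPKM in BxPC-3 and 137, 2023 and 2077 in the libraries labelled CFPAC-1 (adjusted p = 0.317, limma), and FBL, fibrillarin, at 141, 138 and 145 against 109, 997 and 1008 (adjusted p = 0.198). The segment summed to 633 to 738 FPKM in BxPC-3, 470.5 in control 1 and 4759 to 4814 in controls 2 and 3.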

How the data were processed

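RNA was sequenced from 12 libraries, of which the 6 control libraries were used. The deposited table, made by the authors, holds log2(FPKM + 1) per gene, a length- and depth-scaled estimate. FastQC, StringTie and GRCh38 are named, per the submitters' processing notes; for the aligner, annotation and strand setting the sources used here give nothing, so near-identical, overlapping and antisense genes are uncertain. Gene coordinates are from GENCODE 29 (58457 of 60564 gene identifiers matched, 96.5%). FPKM was recovered by inverting the log2 values. Absolute depth is unknown, and the smallest steps of FPKM put relative depth at 0.678 to 1.

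Genes with at least 1 FPKM in at least 3 of the 6 libraries were fitted with limma 3.58.1 (R 4.3.3), unpaired, on log2(FPKM + 1), with Benjamini-Hochberg adjustment over all 11523. The fitting steps were tested on simulated data. Libraries with the same number deviated together from their group means (correlations 0.179, 0.139 and 0.133), which pairs them by the rule of every correlation above 0.1. Libraries with different numbers ranged from -0.174 to 0.137, with 0.137 and 0.129 between those numbered 2 and 3, so the numbers 2 and 3 are not told apart by this check. A fit with the replicate number as a block was therefore run, and its value stands beside a result where it changed the call.

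Genes named were the 14 with the largest difference in each direction (adjusted p under 0.05, agreement against CFPAC-1 control 1 and controls 2 and 3, no overlap, mean of at least 5 FPKM in the higher line), 10 per opposite pattern, and for each list up to 4 passing members per direction by mean FPKM and up to 2 that did not pass. Marker genes, genes under the filter and genes of neighbour runs were named besides, the runs after their values were seen. The genes and lists were chosen with earlier results of these data known. Some genes that these rules name, 1 of the 14 higher genes included, are not reported here. Alternatives changed the pseudocount, filter, scaling, limma settings and libraries. Tables and figures were made with Python 3.11.15.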

Additional observations from a re-analysis of the deposited data

How the results depend on the processing

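Without 1 library at a time the number of passing genes ran from 1030 (without BxPC-3 control 2) to 5268 (without CFPAC-1 control 1), from 672 to 2433 for higher genes and from 358 to 2835 for lower genes, and from 1030 to 2471 for genes with both kinds of CFPAC-1 library on the same side. Without CFPAC-1 control 2 or 3 or BxPC-3 control 3 it was 1228, 1230 and 1116; the cause was not tested. A filter of mean FPKM of at least 5 tested fewer genes and left 1108 (551 higher, 557 lower), all in agreement. The libraries numbered 2 and 3 alone, a setting chosen after seeing the data, gave 7901 (3499 higher, 4402 lower). With the replicate block 2030 genes passed, 1800 of them among the 2484, and it changed no other call among the main 28 genes than that of KRT5. Counts stayed within 1.5 times under pseudocount 0.1 (2323), no filter (2761), quantile scaling (2599), rescaling without mitochondrial genes (2457), limma trend and robust settings (2460), all 12 libraries (3172) and CFPAC-1 control 1 alone (2579). Of 187 passing named genes none changed direction under these settings. Fits that left out libraries or changed the pseudocount could not change it, since the values of the lines did not overlap in any passing gene. Calls lost numbered 29 with the block, 46 without a filter, 51 with CFPAC-1 control 1 alone and up to 75 without 1 library. Low FPKM values and genes at 0 are limited by the unknown depth.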

Other observations

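Other runs of neighbouring genes passed in the same direction. In all, 14 runs of at least 5 consecutive tested protein-coding genes did so, by a rule chosen after the values had been seen. The HOXB genes, homeobox genes that mark position along the body axis, formed a run of 7 from HOXB2 to HOXB8 (chr17:48540894-48633572), lower in BxPC-3 by differences of -4.18 to -1.05 in log2(FPKM + 1). HOXB8 stood at 0, 0.0471 and 0.112 FPKM in BxPC-3 and 11.7, 9.55 and 10.5 in the libraries labelled CFPAC-1, and HOXB7, the smallest difference of the run, at 14.3, 10.3 and 9.96 and 29.3, 21.7 and 23.7. All 7 genes were on the same side of CFPAC-1 control 1 and of controls 2 and 3. The guanylate-binding proteins, large GTPases induced by interferon gamma, formed a run of 5 from GBP3 to GBP6 (chr1:89006666-89386461), higher by 1.63 to 2.46. GBP1 stood at 3.73, 6.03 and 6.25 FPKM in BxPC-3 and 0.439, 0 and 0 in the others, and GBP6 at 4.02, 2.29 and 2.57 and 0 in all 3.

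A run of 7 unrelated genes from CRIM1 to CEBPZOS on chromosome 2 (chr2:36355926-37216193) was lower by -1.72 to -0.61. EIF2AK2, the antiviral kinase PKR in that run, stood at 4.4, 2.93 and 3.36 FPKM in BxPC-3 and 9.07, 6.04 and 6.26 in the others. A run of 6 from ST3GAL5 to KDM3A on the same chromosome (chr2:85837120-86492716) was lower by -1.12 to -0.84. The interferon-induced gene IFI27 opened a run of 5 on chromosome 14 that also held DICER1, the miRNA-processing enzyme, at 3.79, 3.98 and 3.99 FPKM against 1.19, 1.83 and 1.72. Whether these runs differ in DNA copy number was not tested.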
